A study of Homo sapiens with 12 samples.

Results

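The 10 genes described here are SMAD1, SMAD2, SMAD3, SMAD4, SMAD5, SMAD6, SMAD7, SMURF1, SMURF2 and SKIL, found by gene name among the 58735 genes of the deposited expression table. RNA was sequenced from cultured human oesophageal squamous cell carcinoma lines in 12 libraries, 3 for each of 4 groups. KYSE180 cells carrying CDCA7 overexpression were set against wild-type KYSE180 cells, and KYSE150 cells with a hairpin RNA against CDCA7 (shCDCA7) against wild-type KYSE150 cells, both wild types being labelled as native controls. The labels describe neither an empty vector nor a scrambled hairpin, and the promoter of the construct, the number of hairpins and any TGF-β treatment are not given in the sources used here. CDCA7 is a nuclear zinc-finger protein that acts with the chromatin remodeller HELLS, and the study's title links it to SMAD4 and SMAD7 in TGF-β signalling. Nothing in the labels says that replicates came from separate cultures, so p-values measure only the spread between these libraries, which may be technical.

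TGF-β, activin and bone morphogenetic protein (BMP) ligands bind paired serine/threonine kinase receptors that phosphorylate the receptor SMADs. SMAD2 and SMAD3 mainly carry TGF-β and activin signals, and SMAD1 and SMAD5 mainly carry BMP signals. Phosphorylated receptor SMADs join SMAD4, the common partner, and enter the nucleus to regulate genes. SMAD6 and SMAD7 are inhibitory SMADs whose transcription is induced by the pathway itself, SMURF1 and SMURF2 are ubiquitin ligases that mark SMADs and receptors for degradation, and SKIL (SnoN) is a nuclear repressor that binds SMAD complexes. In squamous epithelium TGF-β signalling is known both for growth arrest and for epithelial-mesenchymal transition.

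All 10 genes were detected in every library and passed the filter on low reads in each comparison. Libraries held 16.3 M to 19.6 M reads in genes. CDCA7 itself measured 44.6, 59.1 and 57.9 FPKM (a read density per kilobase of exon, scaled for library size) in overexpressing cells, against 24.0, 18.2 and 17.4 FPKM in native KYSE180 cells. It measured 9.24, 10.1 and 8.83 FPKM in shCDCA7 cells, against 27.4, 25.6 and 25.6 FPKM in native KYSE150 cells, so each manipulated group lay on its labelled side of every native library. The library shCDCA7 replicate 2 stood apart: its Pearson correlation with the other shCDCA7 libraries across genes, on log2(FPKM + 1), was 0.962 and 0.964, against 0.996 between those libraries. The shCDCA7 differences are therefore also given without it. Native KYSE180 libraries were also spread, with correlations of 0.967 to 0.982 between them. Mitochondrial genes took 5.20, 11.2 and 5.73% of reads in shCDCA7 cells and 4.03 to 4.15% in native KYSE150 cells, the high value being shCDCA7 replicate 2. They took 7.97 to 8.65% in overexpressing cells and 4.76 to 6.38% in native KYSE180 cells. In both lines every manipulated library thus lay above every native one, and the part of this in the results was not tested. All 10 squamous epithelial markers examined exceeded 1 FPKM in every KYSE180 library, and 9 of 10 did so in every KYSE150 library, the exception being SOX2. Summed over 8 markers, fibroblast genes reached at most 5.51 FPKM in any library, and COL1A1 made up most of the sum in every library. COL1A1 measured 4.65 to 5.20 FPKM in overexpressing cells and 3.20 to 5.39 FPKM in native KYSE180 cells. It measured 0.968 to 1.38 FPKM in shCDCA7 cells and 0.647 to 0.807 FPKM in native KYSE150 cells. COL1A2 and POSTN were at 0 in all KYSE180 libraries but not in all KYSE150 libraries. PDGFRA was at 0 in all KYSE150 libraries but above 0 in every KYSE180 library. Leukocyte markers summed to at most 1.92 FPKM and endothelial markers to at most 1.31 FPKM, both in native KYSE180 cells.

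**Figure D1:**
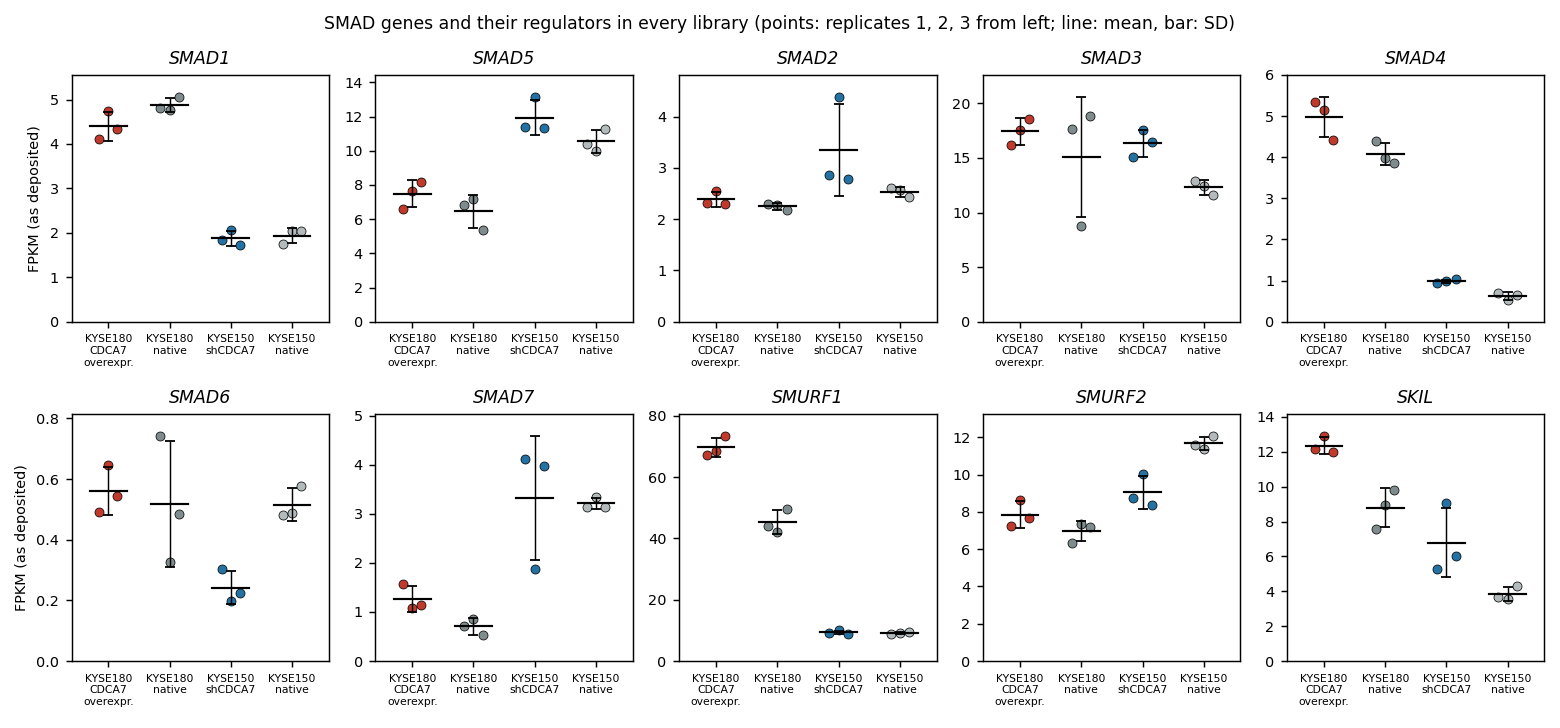
FPKM of the 10 genes (vertical axes, from 0) in each library, by group. Points are replicates 1 to 3 from left to right, lines are means and bars are SD (n = 3); SMURF1 reaches 67.3 to 73.4 FPKM in CDCA7-overexpressing KYSE180 cells and 42.2 to 49.8 FPKM in native KYSE180 cells, and SMAD4 is highest in the KYSE180 groups while SMAD7 is highest in the KYSE150 groups.

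Under CDCA7 overexpression SMURF1 rose in KYSE180 cells. It measured 67.3, 68.6 and 73.4 FPKM in overexpressing cells, against 43.9, 42.2 and 49.8 FPKM in native KYSE180 cells. The 2 groups did not overlap, and the ratio of their means was 1.54. By limma on log2(FPKM + 1) with Benjamini-Hochberg adjustment over 15944 genes, the log2 difference was 0.61 (SE 0.12, 95% interval 0.34 to 0.89, adjusted p = 0.0281). SMURF1 was the only member of 10 called at an adjusted p under 0.05, against 9.08% of all genes tested. Without overexpression replicate 1, 2 or 3 the adjusted p was 0.0817, 0.0800 and 0.133 in turn, and without native replicate 1 it was 0.113, so the call needed each of these libraries while the log2 difference stayed between 0.57 and 0.68. The call was kept under 7 of 13 alternatives. SMURF1 lies on chromosome 7 at 99027438 to 99144100 (GRCh38, minus strand). Of its exonic bases, 11.7% overlap exons of TRRAP on the opposite strand, and no source used here says whether the counting used strand.

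SMURF2, the closely related ligase that acts on receptor SMADs and on TGF-β receptors bound by SMAD7, measured 7.26, 8.63 and 7.68 FPKM in overexpressing cells, against 6.35, 7.35 and 7.19 FPKM in native KYSE180 cells. Those ranges overlapped, and the difference of 0.15 was not called (SE 0.12, adjusted p = 0.440). There were 7.94 to 9.55 FPKM of SMURF1 per FPKM of SMURF2 in overexpressing cells and 5.75 to 6.92 in native KYSE180 cells.

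SKIL, on chromosome 3 at 170357678 to 170396835, measured 12.2, 12.9 and 12 FPKM in overexpressing cells, against 7.58, 8.96 and 9.80 FPKM in native KYSE180 cells. All 3 overexpressing libraries lay above all native ones. The log2 difference was 0.46 (SE 0.13, 95% interval 0.17 to 0.75) and missed the threshold (adjusted p = 0.0592). It passed without native replicate 3 (adjusted p = 0.0347) and when the recovered reads were fitted with limma-voom (adjusted p = 0.0481).

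SMAD4 and SMAD7, which the study's title names, were not called under CDCA7 overexpression. Both lie on chromosome 18 (GRCh38), SMAD4 at 51028394 to 51085045 on the plus strand and SMAD7 at 48919853 to 48952052 on the minus strand. SMAD4 measured 5.34, 5.16 and 4.42 FPKM in overexpressing cells, against 4.38, 3.98 and 3.86 FPKM in native KYSE180 cells, resting on 1069 to 1213 and 971 to 998 reads. The lowest overexpressing library was just above the highest native one, and the log2 difference was 0.23 (SE 0.13, 95% interval -0.06 to 0.53, adjusted p = 0.257). SMAD7 measured 1.57, 1.09 and 1.14 FPKM in overexpressing cells, against 0.717, 0.866 and 0.534 FPKM in native KYSE180 cells, resting on 98 to 128 and 53 to 81 reads. Its groups also did not overlap, and the ratio of the means was 1.80. The log2 difference was 0.41 (SE 0.12, 95% interval 0.12 to 0.70, adjusted p = 0.0764), and no alternative called it. At such levels the added 1 makes a log2 difference smaller than the ratio of FPKM.

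None of the receptor SMADs was called. SMAD3, the TGF-β receptor SMAD that binds DNA directly (chromosome 15, 67063763 to 67195195), measured 16.2, 17.5 and 18.6 FPKM in overexpressing cells, against 17.6, 8.81 and 18.8 FPKM in native KYSE180 cells. Native replicate 2 alone was low, and without it the log2 difference was -0.06 in place of 0.26. SMAD2, SMAD1, SMAD5 and the inhibitory SMAD6 had log2 differences between -0.12 and 0.19 (adjusted p 0.413 to 0.810), that of SMAD2 turning negative with total-read scaling. Groups did not overlap for 6 of the 10 members (SMAD1, SMAD2, SMAD4, SMAD7, SMURF1 and SKIL), against 35.1% of all genes tested. The median log2 difference over the 10 was 0.21, beside -0.00 for all genes tested.

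The promoter windows of SMURF1, SMAD3, SMAD4, SMAD6 and SMAD7 are shown because these genes either changed with CDCA7 or are named in the study's title. They are the bases before a RefSeq start (GRCh38.p14), written 5′ to 3′ on the gene's strand. Capitals mark motifs tied to SMAD binding: the palindrome GTCTAGAC, the shorter CAGAC, and the GC-rich GGCGCC. Each was searched on both strands, so that CAGAC may stand as GTCTG, and no marked motif overlaps another. The SMAD3 window lies inside the annotated gene but outside its exons. The SMAD4 window ends where an exon of a longer transcript begins, and that of SMAD7 is the second of its listed starts and lies in an intron of a longer transcript.
SMURF1 at chr7:99144109-99144358, minus strand: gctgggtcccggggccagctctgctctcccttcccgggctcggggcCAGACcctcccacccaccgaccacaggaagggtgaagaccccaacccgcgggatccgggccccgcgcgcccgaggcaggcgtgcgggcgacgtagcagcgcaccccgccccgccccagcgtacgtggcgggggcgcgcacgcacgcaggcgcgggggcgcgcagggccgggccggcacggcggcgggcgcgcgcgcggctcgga
SMAD3 at chr15:67065352-67065601, plus strand: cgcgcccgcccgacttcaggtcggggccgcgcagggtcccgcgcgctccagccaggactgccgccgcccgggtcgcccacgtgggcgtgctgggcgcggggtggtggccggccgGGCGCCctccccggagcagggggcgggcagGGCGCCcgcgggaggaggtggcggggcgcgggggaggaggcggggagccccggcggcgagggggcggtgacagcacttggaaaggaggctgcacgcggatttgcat
SMAD4 at chr18:51029963-51030099, plus strand: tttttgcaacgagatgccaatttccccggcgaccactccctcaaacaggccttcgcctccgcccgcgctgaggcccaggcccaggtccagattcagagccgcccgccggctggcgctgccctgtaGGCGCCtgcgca
SMAD6 at chr15:66701986-66702235, plus strand: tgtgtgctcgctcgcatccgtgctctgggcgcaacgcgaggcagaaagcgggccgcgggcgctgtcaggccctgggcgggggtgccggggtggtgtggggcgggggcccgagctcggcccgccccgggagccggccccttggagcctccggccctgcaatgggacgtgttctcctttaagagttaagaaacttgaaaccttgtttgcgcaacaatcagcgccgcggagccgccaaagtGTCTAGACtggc
SMAD7 at chr18:48949334-48949583, minus strand: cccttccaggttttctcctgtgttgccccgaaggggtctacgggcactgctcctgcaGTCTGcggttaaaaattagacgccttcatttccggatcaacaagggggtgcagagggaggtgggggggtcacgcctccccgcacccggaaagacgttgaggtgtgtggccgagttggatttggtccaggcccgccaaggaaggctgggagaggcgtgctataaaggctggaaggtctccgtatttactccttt
All 10 members matched RefSeq, with 21 start windows of 250 bases among them. GTCTAGAC was in 1 of the 21, the SMAD6 window, where it begins 12 bases before the start, and in 0.182% of all 35116 windows of this length. CAGAC was in 7 of the 21 and in 38.0% of all, and GGCGCC in 7 of the 21 and in 16.4% of all. The SMURF1 window holds 40 CpG sites, against a median of 11 over all windows, and the member windows ran from 2 to 43. A match is a stretch of letters and says nothing of binding in these cells.

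**Figure D2:**
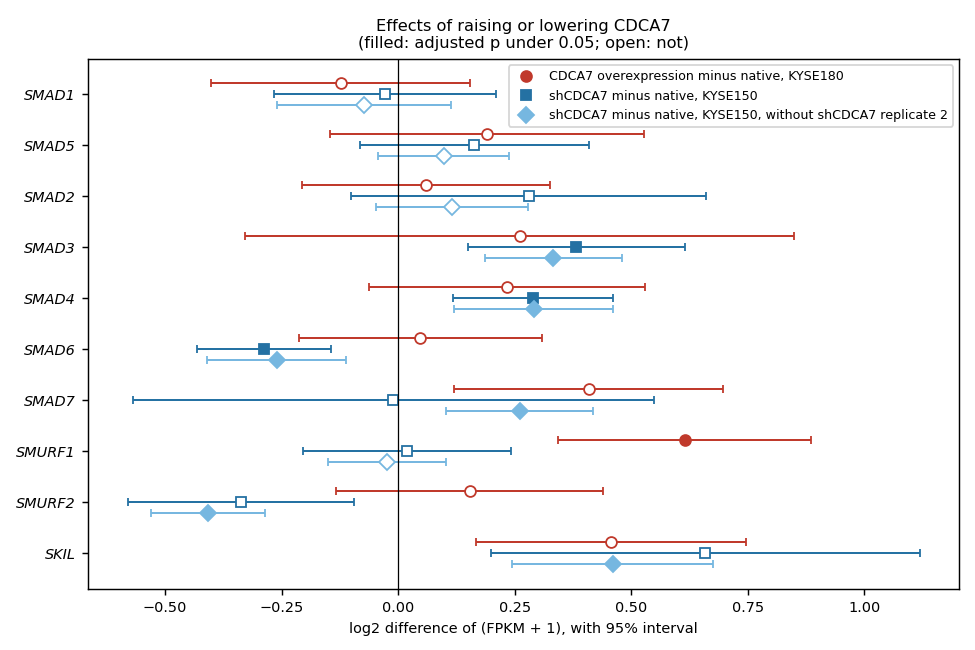
Log2 differences of (FPKM + 1) for the 10 genes (horizontal axis, with 95% intervals) for CDCA7 overexpression minus native in KYSE180, for shCDCA7 minus native in KYSE150, and for the same KYSE150 comparison without shCDCA7 replicate 2. Filled points passed an adjusted p of 0.05; SMURF1 is filled at 0.61 in KYSE180 and open at 0.02 in KYSE150, and leaving out that library fills 6 of 10 points in KYSE150.

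With CDCA7 lowered in KYSE150, SMAD3 and SMAD4 rose and SMAD6 fell. SMAD4 measured 0.945, 0.980 and 1.03 FPKM in shCDCA7 cells, against 0.695, 0.525 and 0.655 FPKM in native KYSE150 cells, resting on 176 to 237 and 134 to 195 reads. All shCDCA7 libraries lay above all native ones, and the ratio of the means was 1.57. The log2 difference was 0.29 (SE 0.07, 95% interval 0.12 to 0.46, adjusted p = 0.0358 by limma). The difference was also 0.29 without shCDCA7 replicate 2, with an adjusted p of 0.0120. Leaving out shCDCA7 replicate 1 or 3, or native replicate 1, 2 or 3, ended the call (adjusted p 0.0710, 0.0903, 0.107, 0.161 and 0.120 in turn), and so did scaling by total reads (log2 difference 0.17, adjusted p = 0.140). It was kept under 2 of 13 alternatives.

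SMAD3 measured 15, 17.5 and 16.5 FPKM in shCDCA7 cells, against 12.9, 12.5 and 11.6 FPKM in native KYSE150 cells. The groups did not overlap, and the log2 difference was 0.38 (SE 0.10, adjusted p = 0.0387). Without shCDCA7 replicate 2 it was 0.33 (adjusted p = 0.00362), and without shCDCA7 replicate 1 or 3, or native replicate 1, 2 or 3, the adjusted p was 0.0550, 0.0984, 0.132, 0.150 and 0.162 in turn. Total-read scaling moved the SMAD3 difference to 0.13 (adjusted p = 0.284), and the call was kept under 3 of 13 alternatives. The other receptor SMADs were not called. SMAD2 measured 2.86, 4.38 and 2.79 FPKM in shCDCA7 cells, the high value being replicate 2, against 2.60, 2.57 and 2.43 FPKM in native KYSE150 cells (log2 difference 0.28, adjusted p = 0.252, and 0.12 without that library). SMAD1 had a log2 difference of -0.03 (adjusted p = 0.861), and -0.07 without shCDCA7 replicate 2. SMAD5 had 0.16 (adjusted p = 0.294), and 0.10 without that library, but -0.08 with total-read and -0.04 with upper-quartile scaling.

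SMAD6, which mainly restrains BMP signalling, was at a low level throughout. It measured 0.303, 0.196 and 0.226 FPKM in shCDCA7 cells, against 0.480, 0.487 and 0.578 FPKM in native KYSE150 cells, resting on 23 to 41 and 81 to 99 reads. All shCDCA7 libraries lay below all native ones, at 0.469 times the native mean. The log2 difference was -0.29 (SE 0.06, adjusted p = 0.0221), and -0.26 without shCDCA7 replicate 2 (adjusted p = 0.0108). Leaving out shCDCA7 replicate 3 or native replicate 1, 2 or 3 ended the call (adjusted p 0.0670, 0.0877, 0.0927 and 0.0985 in turn), and it was kept under 6 of 13 alternatives.

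SMAD7, which blocks TGF-β receptors by recruiting SMURF ligases, measured 4.12, 1.87 and 3.98 FPKM in shCDCA7 cells, against 3.15, 3.35 and 3.15 FPKM in native KYSE150 cells. Replicate 2 of shCDCA7 lay below every native library, with 129 reads, and the other shCDCA7 libraries lay above them all. With all 6 libraries the log2 difference was -0.01 (SE 0.23, 95% interval -0.57 to 0.55, adjusted p = 0.979). Without shCDCA7 replicate 2 it was 0.26 (SE 0.07, adjusted p = 0.0140). The direction for SMAD7 in KYSE150 thus depended on this library.

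Of the regulators, SMURF2 measured 8.77, 10.0 and 8.34 FPKM in shCDCA7 cells, against 11.6, 11.4 and 12.1 FPKM in native KYSE150 cells. Its groups did not overlap, but the log2 difference of -0.34 missed the threshold (SE 0.10, adjusted p = 0.0606), whereas without shCDCA7 replicate 2 it was -0.41 and passed (adjusted p = 0.000649). It also passed with total-read scaling (-0.58, adjusted p = 0.00521), with upper-quartile scaling (-0.54, adjusted p = 0.00877) and in a fit of all 12 libraries (adjusted p = 0.0457). SKIL measured 5.27, 9.04 and 6.04 FPKM in shCDCA7 cells, against 3.69, 3.55 and 4.28 FPKM in native KYSE150 cells. Here too the groups did not overlap, and the difference of 0.66 missed the threshold (SE 0.19, adjusted p = 0.0562), while without shCDCA7 replicate 2 it was 0.46 and passed (adjusted p = 0.00463). SMURF1 measured 9.24, 9.97 and 8.81 FPKM in shCDCA7 cells, against 8.95, 9.11 and 9.52 FPKM in native KYSE150 cells, a log2 difference of 0.02 with a 95% interval of -0.20 to 0.24 (adjusted p = 0.902). That of SMURF1 was -0.02 without shCDCA7 replicate 2, -0.22 with total-read and -0.18 with upper-quartile scaling.

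In all, 3 of the 10 members were called in KYSE150 (2 higher and 1 lower), against 19.9% of the 14342 genes tested. Without shCDCA7 replicate 2, 6 of 10 were called (SMAD3, SMAD4, SMAD7 and SKIL higher, SMAD6 and SMURF2 lower), against 55.9% of all genes (29.5% higher and 26.4% lower). The fit of all 12 libraries called SMURF2 and SKIL and none of SMAD3, SMAD4 and SMAD6. Groups did not overlap for 7 of 10 (SMAD2, SMAD3, SMAD4, SMAD5, SMAD6, SMURF2 and SKIL), against 47.8% of all genes. They did not overlap for 8 of 10 without shCDCA7 replicate 2, SMAD7 being added, against 72.4% of all genes. Total-read scaling moved the median of all genes in KYSE150 to -0.16, from 0.00 with the deposited scaling, and upper-quartile scaling moved it to -0.13, so differences under those scalings stand relative to these medians.

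The effects of the manipulations were set against each other in 1 fit of all 12 libraries. SMURF1 differed: its overexpression effect in KYSE180 exceeded its shCDCA7 effect in KYSE150 by 0.59 on the log2 scale (SE 0.13, 95% interval 0.31 to 0.88, adjusted p = 0.0269 by limma). It was the only member called, and in the positive direction, against 5.57% of the 17088 genes tested (2.87% positive and 2.70% negative). The line and the direction of the manipulation cannot be told apart in this difference. The call ended without overexpression replicate 2 or 3 (adjusted p 0.0550 and 0.0786), native KYSE180 replicate 1 (0.0669), shCDCA7 replicate 1 or 3 (0.0558 and 0.0661) or any native KYSE150 replicate (0.0746, 0.0793 and 0.0852).

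For SMURF2 that difference of effects was 0.49 (SE 0.15, adjusted p = 0.0791), and 0.56 without shCDCA7 replicate 2 (adjusted p = 0.0246). Without that library SMURF1 and SMURF2, 2 of 10 members, were called, both positive, against 9.03% of all genes (4.74% positive and 4.29% negative). SMAD4 had a positive effect in both lines, 0.23 in KYSE180 and 0.29 in KYSE150, and the difference of effects was -0.06 with a 95% interval of -0.38 to 0.27 (adjusted p = 0.864). The added 1 shrinks the SMAD4 effect more in KYSE150, where its level is lower. Ratios of the SMAD4 means were 1.22 in KYSE180 and 1.57 in KYSE150, and limma-voom gave effects of 0.29 and 0.66. Over the 18 alternatives the difference of SMAD4 effects ran from -0.38 to 0.01, and 0 of them called it. SKIL likewise had positive effects of 0.46 and 0.66, which differed by -0.20 (95% interval -0.71 to 0.30, adjusted p = 0.653). SMAD7 had a difference of effects of 0.42 (95% interval -0.19 to 1.03, adjusted p = 0.408), and SMAD6 of 0.34 (adjusted p = 0.156). Without shCDCA7 replicate 2 these differences of effects were -0.06 for SMAD4, -0.00 for SKIL, 0.15 for SMAD7 and 0.31 for SMAD6, none of them called.

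The native lines differed in 7 of the 10 genes, SMAD4 and SMAD7 in opposite directions. The native libraries are the same ones that served as controls above. SMAD4 measured 4.38, 3.98 and 3.86 FPKM in native KYSE180 cells, against 0.695, 0.525 and 0.655 FPKM in native KYSE150 cells, 6.52 times as high (log2 difference 1.64, SE 0.10, adjusted p = 1.16e-07 by limma). SMAD7 had the opposite order, with 0.717, 0.866 and 0.534 FPKM in native KYSE180 cells and 3.15, 3.35 and 3.15 FPKM in native KYSE150 cells (log2 difference -1.31, SE 0.20, adjusted p = 0.000155). In bulk RNA, fewer expressing cells and less RNA per cell cannot be told apart.

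SMURF1 averaged 45.3 ± 3.97 FPKM in native KYSE180 cells and 9.19 ± 0.294 FPKM in native KYSE150 cells (SD, n = 3 each), 4.93 times as high (log2 difference 2.18, SE 0.09, adjusted p = 4.18e-09). SMURF2 was lower in KYSE180, at 6.96 ± 0.538 FPKM in native KYSE180 cells and 11.7 ± 0.347 FPKM in native KYSE150 cells (log2 difference -0.67, SE 0.10, adjusted p = 0.000204). The 2 SMURF genes thus lay in opposite order between the lines, with 5.75 to 6.92 FPKM of SMURF1 per FPKM of SMURF2 in native KYSE180 cells and 0.772 to 0.801 in native KYSE150 cells. SKIL averaged 8.78 ± 1.117 FPKM in native KYSE180 cells and 3.84 ± 0.386 FPKM in native KYSE150 cells (log2 difference 1.01, SE 0.16, adjusted p = 0.000257).

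Among BMP receptor SMADs, SMAD1 was higher in KYSE180, at 4.87 ± 0.160 FPKM in native KYSE180 cells and 1.94 ± 0.168 FPKM in native KYSE150 cells (log2 difference 1.0, SE 0.10, adjusted p = 8.03e-06). SMAD5 was lower, at 6.46 ± 0.960 FPKM in native KYSE180 cells and 10.5 ± 0.645 FPKM in native KYSE150 cells (log2 difference -0.64, SE 0.12, adjusted p = 0.000953). SMAD2, SMAD3 and SMAD6 were not called (log2 differences -0.12, 0.21 and -0.01, adjusted p = 0.467, 0.425 and 0.962). In total 7 of 10 members were called, 4 higher and 3 lower in KYSE180, against 58.0% of all genes. These 7 were called under every one of the 13 alternatives. Groups did not overlap for 8 of 10, all but SMAD3 and SMAD6, against 71.3% of all genes. SMAD9, the remaining BMP receptor SMAD and no member of the set, had 15 to 44 reads per native KYSE180 library and 2 to 5 per native KYSE150 library.

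**Figure D3:**
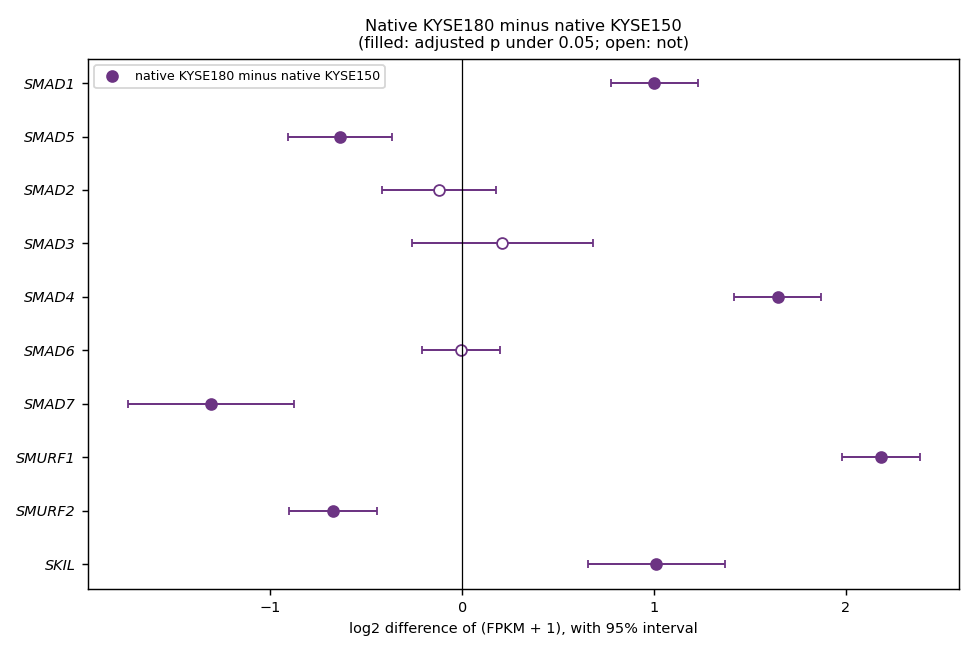
Log2 differences of (FPKM + 1) for native KYSE180 minus native KYSE150 (horizontal axis, with 95% intervals) for the 10 genes. Filled points passed an adjusted p of 0.05: SMAD1, SMAD4, SMURF1 and SKIL lie to the right, SMAD5, SMAD7 and SMURF2 to the left.

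**Figure D4:**
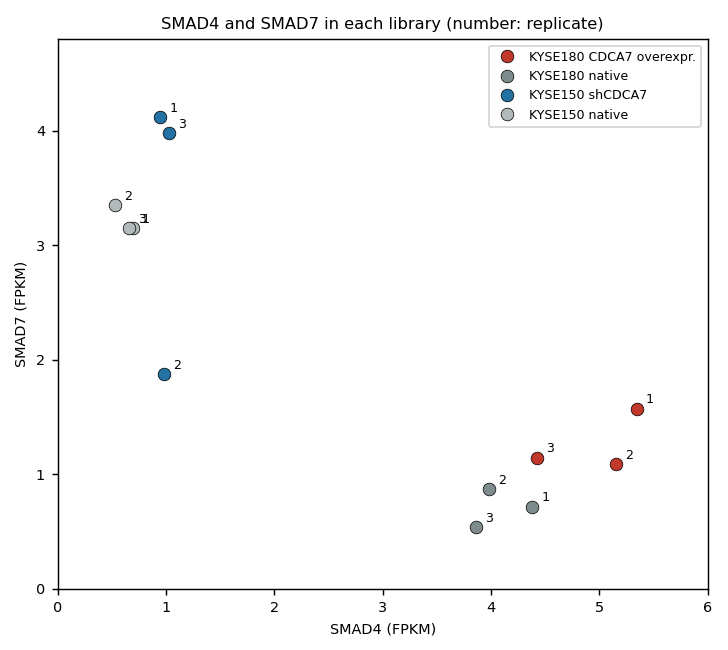
SMAD7 (vertical axis) against SMAD4 (horizontal axis), both in FPKM, with 1 point per library numbered by replicate and coloured by group. KYSE180 libraries lie at 3.86 to 5.34 FPKM of SMAD4 and at most 1.57 FPKM of SMAD7, and KYSE150 libraries at or under 1.03 FPKM of SMAD4, with shCDCA7 replicate 2 below the other KYSE150 libraries in SMAD7.

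Per library, SMAD7 divided by SMAD4 was 0.294, 0.211 and 0.259 in overexpressing cells and 0.164, 0.218 and 0.138 in native KYSE180 cells, 2 overlapping ranges. It was 4.36, 1.91 and 3.87 in shCDCA7 cells and 4.53, 6.38 and 4.81 in native KYSE150 cells, where every shCDCA7 library lay below every native one. SMAD4 made up 11.2 to 14.6% of the summed FPKM of the 7 SMAD genes in overexpressing cells and 10.6 to 14.1% in native KYSE180 cells. It made up 2.44 to 2.74% in shCDCA7 cells and 1.67 to 2.17% in native KYSE150 cells. The inhibitory SMAD6 and SMAD7 together made up 4.27 to 5.64% in overexpressing cells and 2.81 to 4.23% in native KYSE180 cells, and 12.1, 5.15 and 11.2% in shCDCA7 cells and 11.4 to 12.2% in native KYSE150 cells, where shCDCA7 replicate 2 alone was far below. The sum itself ran from 28.2 to 40.2 FPKM over the 12 libraries.

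**Figure D5:**
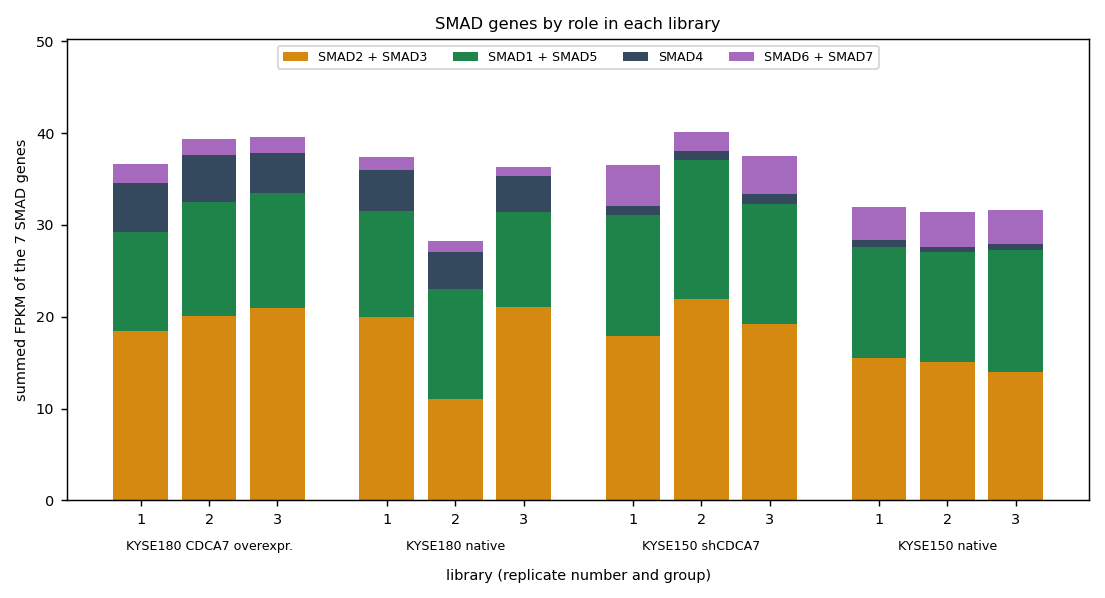
Summed FPKM of the 7 SMAD genes in each library (stacked bars from 0), divided into SMAD2 + SMAD3, SMAD1 + SMAD5, SMAD4, and SMAD6 + SMAD7. The sums run from 28.2 to 40.2 FPKM, and SMAD4 forms 10.6 to 14.6% of the bar in KYSE180 libraries and 1.67 to 2.74% in KYSE150 libraries.

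On the FPKM scale the order of the members within each group differed by line. In overexpressing cells SMURF1 (69.8 FPKM on average) was followed by SMAD3 (17.4), SKIL (12.4), SMURF2 (7.86), SMAD5 (7.49), SMAD4 (4.97), SMAD1 (4.40), SMAD2 (2.39), SMAD7 (1.27) and SMAD6 (0.560). The ranges of SMURF2 and SMAD5, and of SMAD4 and SMAD1, overlapped there, although SMAD4 lay above SMAD1 in each library. Native KYSE180 cells had the same order but for SMAD1 above SMAD4, with overlaps between SMAD3 and SKIL, SMURF2 and SMAD5, and SMAD7 and SMAD6. In shCDCA7 cells SMAD3 (16.3 FPKM) led, followed by SMAD5 (11.9), SMURF1 (9.34), SMURF2 (9.05), SKIL (6.79), SMAD2 (3.34), SMAD7 (3.32), SMAD1 (1.88), SMAD4 (0.984) and SMAD6 (0.242). Here the ranges of SMURF1, SMURF2 and SKIL overlapped, although SKIL lay below both SMURF genes in each library. The range of SMAD7 overlapped those of SMAD2 and SMAD1. When shCDCA7 replicate 2 was left out, SMAD7 (4.05 FPKM) lay above SMAD2 (2.83) and SMAD1 (1.79) with no overlap, and the other members kept their places. SKIL (5.27 to 6.04 FPKM) then did not overlap SMURF2 (8.34 to 8.77 FPKM). Native KYSE150 cells had SMAD3 (12.3) and SMURF2 (11.7) at the top with overlapping ranges, then SMAD5 (10.5), SMURF1 (9.19), SKIL (3.84), SMAD7 (3.22), SMAD2 (2.53), SMAD1 (1.94), and SMAD4 (0.625) and SMAD6 (0.515), which overlapped. In each of these libraries, however, SMAD4 lay above SMAD6. The table divides by the union of all annotated exons, which for SMAD1 is 6058 bases against 2085 in its longest coding transcript, and for SMURF2 6961 against 2918. Divided by the longest coding transcript, SMURF2 came first in native KYSE150 cells and SMAD1 moved to the fifth place there. That division hardly moves SMAD2, whose exon union is 36366 bases and whose longest coding transcript is 34526. In overexpressing cells SMAD2 had 1358 to 1664 reads and SMAD4 1069 to 1213, although SMAD2 was lower in FPKM. The place of SMAD2, and the sums and shares of the SMAD genes above, thus depend on that length.

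The genes most like SMAD4 over the 12 libraries, among 13581 protein-coding genes, were C6orf106, ZMAT2 and LAMP1. Their root mean square difference from SMAD4 was 0.114, 0.119 and 0.121 in log2(FPKM + 1) after each gene was centred on its mean, beside an SD of 0.82 for SMAD4 itself. C6orf106, for example, averaged 78.1 FPKM in overexpressing cells, 64.2 in native KYSE180 cells, 28.7 in shCDCA7 cells and 22.0 in native KYSE150 cells. For SMAD7 (SD 0.61) the most alike were TPBG, C6orf136 and SPRYD3, at 0.0977, 0.0978 and 0.118. TPBG averaged 8.79 FPKM in overexpressing cells, 6.91 in native KYSE180 cells, 18.8 in shCDCA7 cells and 19.1 in native KYSE150 cells. The likeness holds on the log2(FPKM + 1) scale only, where the added 1 shrinks differences of SMAD4 and SMAD7 more than those of genes at higher levels. SMAD4 averaged 4.07 FPKM in native KYSE180 cells and 0.625 in native KYSE150 cells, and SMAD7 0.706 and 3.22, larger ratios than those of C6orf106 and TPBG.

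The wider pathway was counted over lists of SMAD cofactors and turnover factors, ligands and receptors, and SMAD target genes. The lists were chosen with earlier results of these data known, so their counts, here and below, are a description only. They also share genes: BAMBI and SKI, among others, are both cofactors and targets, and LTBP2 is in the ligand and target lists. Such genes are counted in each list. Under CDCA7 overexpression 10 of 33 target genes tested rose and 0 fell, against 4.65% of all genes higher and 4.43% lower, and the list's median was 0.26. Those 10 higher targets were 0, 5 and 1 without overexpression replicate 1, 2 and 3 in turn, 4 without native replicate 1, and 12 and 11 without native replicate 2 and 3, when 2 were lower; the median stayed between 0.21 and 0.38. MMP2, a secreted matrix protease, averaged 16.9 FPKM in overexpressing cells and 3.34 FPKM in native KYSE180 cells (log2 difference 2.07, adjusted p = 0.00456). PTHLH, a secreted hormone-like peptide, averaged 52.6 FPKM in overexpressing cells and 17.8 FPKM in native KYSE180 cells (1.70, adjusted p = 0.0367). Of 41 cofactors and turnover factors 4 rose and 2 fell (median 0.10). RUNX2, a transcription factor that partners SMADs, had a difference of 0.94, the pseudoreceptor BAMBI 0.83 and the antiproliferative factor TOB1 0.69, while the repressor MECOM had -0.74 and the endosomal adaptor HGS -0.46. Of 27 ligands and receptors only TGFB1, a TGF-β ligand, was called, at 44.4 FPKM in overexpressing cells and 28.1 FPKM in native KYSE180 cells (0.65, adjusted p = 0.0448). None of either list was called without overexpression replicate 1, 2 or 3 or native replicate 1.

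In KYSE150, 4 of 31 target genes rose and 4 fell with shCDCA7, against 10.0% of all genes higher and 9.86% lower (list median 0.20, all genes 0.00). Among targets 14 rose and 4 fell without shCDCA7 replicate 2, against 29.5% and 26.4% of all genes, and without any other library 1 or 2 rose and 2 or 3 fell. GADD45B, a stress-response gene, averaged 47.1 FPKM in shCDCA7 cells and 13.8 FPKM in native KYSE150 cells (log2 difference 1.67, adjusted p = 0.00413). MYC averaged 26.5 FPKM in shCDCA7 cells and 10.7 FPKM in native KYSE150 cells (1.21, adjusted p = 0.00840). CTGF, a matricellular protein, had a difference of 0.75. Lower were PTHLH at -0.80, the latent TGF-β binding protein LTBP2 at -0.72 and the cell-cycle phosphatase CDC25A at -0.56. Of 38 cofactors and turnover factors 3 rose (the repressor TGIF1 at 0.68, TOB1 at 0.60 and the SUMO ligase ZNF451 at 0.60) and 2 fell (the SMAD linker phosphatase CTDSP1 at -0.98 and the SKIL paralogue SKI at -0.44), with a list median of 0.07. Of 24 ligands and receptors 5 rose and 2 fell (median -0.03). TGFB2 averaged 24.4 FPKM in shCDCA7 cells and 10.7 FPKM in native KYSE150 cells (1.08, adjusted p = 0.0156), the coreceptor TGFBR3 had 0.58, the activin antagonist FST 0.57, LTBP2 -0.72 and the activin subunit gene INHBA -0.33. INHBA was at a low level, 0.0780 FPKM in shCDCA7 cells and 0.353 FPKM in native KYSE150 cells, where the added 1 shrinks the difference. Without shCDCA7 replicate 2, 13 of 37 cofactors and turnover factors were higher and 12 lower, and 8 of 24 ligands and receptors higher and 6 lower, and all 15 KYSE150 genes named from the lists were called in the same direction. Without any other library at most 1 cofactor was called in each direction, and at most 3 ligands and receptors were higher and 2 lower.

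The manipulations differed in 5 target genes, all with the overexpression effect the greater, of 34 tested (among them PTHLH by 2.50 and MMP2 by 1.90, adjusted p = 0.0111 and 0.00137), against 2.87% of all genes. Between 2 and 8 were called in that direction without 1 library, the fewest without overexpression replicate 3 and the most without native KYSE180 replicate 3, and 6 without shCDCA7 replicate 2. In the opposite direction 2 were called without shCDCA7 replicate 2, and 1 without native KYSE180 replicate 2 or 3. In the other lists the difference of effects was called for CTDSP1 (0.72), 1 of 42 cofactors and turnover factors. Of 29 ligands and receptors the BMP antagonist NOG (0.68) and TGFB2 (-1.13) were called, against 2.87% of all genes positive and 2.70% negative. These 3 were also called without shCDCA7 replicate 2 (0.67, 0.57 and -0.90 in turn). Without overexpression replicate 1 or 3, native KYSE180 replicate 1 or any native KYSE150 replicate, 0 ligands and receptors were called. Only 1, positive, was called without overexpression replicate 2, and only 1, negative, without shCDCA7 replicate 3.

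Between the native lines, 16 of 34 target genes were higher and 12 lower in KYSE180, against 33.4% and 24.6% of all genes. ID1, a BMP target, averaged 77.0 FPKM in native KYSE180 cells and 7.36 FPKM in native KYSE150 cells (log2 difference 3.18). BAMBI (3.54) and MYC (3.07) were also among the most raised targets, and the growth factor gene PDGFB (-2.55) and fibronectin, FN1 (-2.45), among the most lowered. The added 1 shrinks such differences where a level is low, as for FN1 at 0.312 FPKM in native KYSE180 cells and 6.01 FPKM in native KYSE150 cells. Of 29 ligands and receptors 15 were higher and 8 lower. The ligand BMP7 averaged 36.0 FPKM in native KYSE180 cells and 3.97 FPKM in native KYSE150 cells (2.89), FST had a difference of 1.74 and the latent TGF-β binding protein LTBP1 one of 1.29. TGFB2 averaged 0.139 FPKM in native KYSE180 cells and 10.7 FPKM in native KYSE150 cells (-3.36), and the type II TGF-β receptor gene TGFBR2 9.30 FPKM in native KYSE180 cells and 27.4 FPKM in native KYSE150 cells (-1.47), with GDF15 at -1.75. Of 42 cofactors and turnover factors 12 were higher and 13 lower, RUNX3 (2.86) and TOB1 (1.61) being higher with BAMBI, and the phosphatase gene CTDSPL (-1.65), the ubiquitin ligase gene ITCH (-1.31) and STRAP (-0.99), a binder of TGF-β receptors, lower. RUNX3 averaged 6.28 FPKM in native KYSE180 cells and 0.00344 FPKM in native KYSE150 cells.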

How the data were processed

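RNA of 12 libraries was examined in 4 groups of 3, taken from the sample labels. The authors deposited normalised values as FPKM, made per kilobase of the listed gene length and scaled by an effective library size. The unit was read from the values: multiplied by the listed gene length, 100% of the values above 0 came out as whole reads (tolerance 0.01 reads) once scaled by a constant for each library. Per the submitters' processing notes, HISAT2 2.0.5 and DESeq2 1.20.0 were used and the build was mm10, a mouse build, whereas all 58735 gene identifiers and positions matched human GENCODE 29 (GRCh38). The counting tool and its use of strand are not given in the sources used here.

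Genes were tested if 3 or more libraries reached 10 reads, scaled to a median library, and the total was 15 or more. The test used log2(FPKM + 1) in limma 3.58.1 (trended prior, two-sided) in R 4.3.3. Benjamini-Hochberg adjustment ran over all genes tested, and an adjusted p under 0.05 was called. Each manipulation was fitted on the 6 libraries of its line, and the native lines and the difference of effects on all 12. Libraries of 16.3 M to 19.6 M reads make 1 read worth 0.0511 to 0.0614 CPM, a limit from counting alone. The fit was also run on simulated data, with known differences larger than the members' effects of either manipulation and the same spread in every library. That run therefore does not cover effects as small as these, or a library that stands apart. The named genes are all 10 members, CDCA7, SMAD9, up to 3 called genes per direction from each list, and the 3 genes most like SMAD4 and SMAD7. A gene that this rule names from the target list is not reported here. The members, lists and tests were chosen with earlier results of these data known. Alternatives were an added 0.1, no filter, total-read and upper-quartile scaling, limma-voom on the recovered reads, a replicate block, other sets of libraries in the fit, and leaving out each library in turn.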

Additional observations from a re-analysis of the deposited data

Results flagged for a closer look

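SMURF1 was singled out because the effects of the manipulations differed between the lines by a direct test. The overexpression effect in KYSE180 minus the shCDCA7 effect in KYSE150 was 0.59 on the log2(FPKM + 1) scale (adjusted p = 0.0269 by limma over 17088 genes), with all 3 overexpressing libraries above all 3 native KYSE180 libraries and overlapping groups in KYSE150. It was called under 9 of 18 alternatives, with adjusted p from 0.0111 to 0.0852. Line and direction of the manipulation cannot be told apart.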

How the results depend on the processing

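Over all member differences and alternatives, 489 kept their direction and side of the threshold, 43 lost the threshold, 13 gained it and 25 changed sign. In native KYSE180 minus native KYSE150, 7 or 8 members were called under every alternative run. The calls with CDCA7 overexpression or shCDCA7 were few and rested on 3 libraries a group; the cause of their changes was not tested, except that leaving out a library leaves fewer samples.

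With no filter on low reads, overexpression gave 3 called genes (1447 with the filter) and 0 members (1 with it), shCDCA7 gave 1554 genes (2854) and 0 members (3), and the difference of effects 530 genes (952). Limma-voom on the recovered reads called 2 members for overexpression, and 476 genes and 0 members for the difference of effects. A fit of all 12 libraries called 2893 genes for overexpression. The difference of effects had 2 called members with total-read scaling and 2 with upper-quartile scaling. Signs changed with total-read scaling for SMAD2 under overexpression (-0.029), SMAD5 and SMURF1 under shCDCA7 (-0.080 and -0.22) and SMAD3 in the difference of effects (0.0077). With upper-quartile scaling they changed for SMAD5 and SMURF1 under shCDCA7 (-0.040 and -0.18), SMAD6 between native lines (0.046) and SMAD3 in the difference of effects (0.012). The share of called genes that were higher was 51.2% for overexpression (29% with total-read and 36.6% with upper-quartile scaling), 50.5% for shCDCA7 (20.5% and 24.6%) and 51.6% for the difference of effects (62.3% and 63.3%).

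Leaving out 1 library gave 1 to 2317 called genes and 0 to 2 members for overexpression, 410 to 7948 genes and 0 to 6 members for shCDCA7, and 269 to 1632 genes and 0 to 2 members for the difference of effects. Log2 differences whose sign changed then ran from -0.064 to 0.44 for SMAD3 and -0.045 to 0.15 for SMAD6 under overexpression. Under shCDCA7 they ran from -0.16 to 0.26 for SMAD7, -0.024 to 0.057 for SMURF1 and -0.077 to 0.0094 for SMAD1, and between native lines from -0.11 to 0.087 for SMAD6. In the difference of effects they ran from -0.10 to 0.013 for SMAD4, -0.083 to 0.10 for SMAD5 and -0.45 to 0.063 for SMAD3.

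With the replicate number as a block, overexpression gave 603 called genes and 0 members, and shCDCA7 1001 genes and 0 members. The numbers do not pair the samples: same-numbered libraries had correlations of their deviations between -0.08 and 0.07 in the 3 pairs of groups.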

Other observations

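Between the native lines, the genes called within 1 Mb went mostly in the member's own direction around SMURF1, SKIL and SMAD1, and by 4 to 2 around SMAD4 and SMAD7. They went mostly or only in the opposite direction around SMURF2 and SMAD5. These neighbourhoods were chosen after values were seen and are a description only. Around SMURF1, 27 of 36 genes tested were higher in native KYSE180 cells and 1 was lower (median log2 difference 0.87), against 33.4% higher and 24.6% lower over all genes, whose median was 0.07. BAIAP2L1, for example, averaged 52.2 FPKM in native KYSE180 cells and 12.8 FPKM in native KYSE150 cells, and CPSF4 25.1 FPKM in native KYSE180 cells and 10.4 FPKM in native KYSE150 cells. Around SKIL, 11 of 14 were higher and 1 lower (median 1.0), with PRKCI at 36.9 FPKM in native KYSE180 cells and 16.0 FPKM in native KYSE150 cells, and SEC62 at 29.2 FPKM in native KYSE180 cells and 9.55 FPKM in native KYSE150 cells. Around SMAD4, 4 of 9 were higher and 2 lower (median -0.18), and around SMAD7, 2 of 11 were higher and 4 lower (median -0.20). Around SMURF2, itself lower in native KYSE180 cells, 15 of 31 were higher and 2 lower (median 0.17). Around SMAD5, also lower, 3 of 8 were higher, 0 lower and 5 not called (median 0.02), and those 3 averaged 0 FPKM in native KYSE150 cells. Around SMAD1, itself higher, 5 of 8 were higher and 0 lower (median 0.44). Under CDCA7 overexpression 1 of the 36 genes around SMURF1 was higher and 3 were lower.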
